A study of Homo sapiens with 78 samples.

Results

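Complement is a set of serum and membrane proteins that mark microbes and damaged cells. The 9 genes described here were taken by symbol from the 19652 genes of the deposited table: the components C3, C5, CFB, C1R and C1S, the soluble inhibitor CFI and the membrane inhibitors CD46, CD55 and CD59. Their mRNA was measured by RNA sequencing of poly(A) RNA in A549 cells, an established human lung carcinoma epithelial line of wild-type genotype. After a night in serum-free medium the cells were treated for 1, 2, 6, 12 or 24 h with interleukin-1β (IL-1β) at 1 ng/ml plus budesonide at 300 nM, with IL-1β alone, with budesonide alone, or were not stimulated (NS). IL-1β is an inflammatory cytokine that activates the transcription factor NF-κB, and budesonide is an inhaled glucocorticoid that activates the glucocorticoid receptor (GR). There were 78 libraries in 20 groups of treatment and time, each of 4 libraries except for 3 in IL-1β-plus-budesonide at 12 h and 3 in NS at 6 h (18 groups of 4). The stated purpose of the series was to understand how GR and NF-κB interact in transcription. The line is a single carcinoma line grown without leukocytes or stroma, and the labels name no DMSO control apart from NS.

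In the classical pathway, C1R and C1S are the proteases of the C1 complex, and activated C1S cleaves C4 and C2. In the alternative pathway, factor B (CFB) binds cleaved C3 and supplies the protease of the C3 convertase. All routes meet at C3, whose fragments coat targets, and then at C5, whose cleavage releases C5a and starts the membrane attack complex. CD55 speeds the decay of convertases, CD46 is a cofactor for factor I (CFI), which cleaves C3b and C4b, and CD59 blocks assembly of the membrane attack complex. The liver makes most of the circulating proteins, whereas epithelial cells, including those of the airway, also make several of them locally.

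The RefSeq genes lie on GRCh38.p14 at chr1:207321678-207360966 (CD55), chr1:207752038-207795516 (CD46), chr4:109730982-109801999 (CFI), chr6:31946095-31952084 (CFB), chr9:120952335-121074865 (C5), chr11:33703010-33736479 (CD59), chr12:7060718-7071032 (C1S), chr12:7080219-7092445 (C1R) and chr19:6677704-6720650 (C3). C1R and C1S are therefore neighbours on chromosome 12. No promoter window was found for C3 or C1S, whose promoters were therefore not searched. Promoter windows of 300 bases, 250 before and 50 after a start, were found in the RefSeq table for the other 7 of the 9 members, 13 windows in all. They were searched on both strands for an NF-κB site (GGG and TTCC with 3 bases of any kind between), a glucocorticoid response element or GRE (GNACA and TGTNC with 3 between), a C/EBP site (TTGCNNAA), a STAT site (TTCNNNGAA) and an interferon-stimulated response element or ISRE (GAAA and GAAA with 2 between). Of 35114 promoter windows of that length, 6.52% held the NF-κB letters, 0.39% the GRE, 10.5% the C/EBP, 7.66% the STAT and 3.57% the ISRE letters. The motifs can overlap one another, and a match is a description of letters only.

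The windows of CFB and CD55 are shown because their time courses were the most alike among the 9 after those of C1R and C1S. A window of C1R is shown because each treatment alone raised its mRNA. All are from RefSeq on GRCh38.p14, 5′ to 3′ on the strand of the gene, with motif matches in capitals.

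CFB, chr6:31945845-31946144, plus strand: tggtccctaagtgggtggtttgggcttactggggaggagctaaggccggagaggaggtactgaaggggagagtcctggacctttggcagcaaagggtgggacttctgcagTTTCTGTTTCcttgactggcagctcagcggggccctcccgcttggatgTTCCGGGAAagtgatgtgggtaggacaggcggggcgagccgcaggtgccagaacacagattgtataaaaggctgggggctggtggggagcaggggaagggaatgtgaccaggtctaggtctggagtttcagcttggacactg

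CD55, chr1:207321428-207321727, plus strand: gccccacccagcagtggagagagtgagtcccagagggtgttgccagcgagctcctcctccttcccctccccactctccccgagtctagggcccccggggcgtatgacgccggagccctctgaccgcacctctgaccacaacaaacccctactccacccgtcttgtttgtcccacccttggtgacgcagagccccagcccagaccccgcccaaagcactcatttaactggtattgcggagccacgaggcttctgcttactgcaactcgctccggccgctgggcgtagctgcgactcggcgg

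C1R, chr12:7091844-7092143, minus strand: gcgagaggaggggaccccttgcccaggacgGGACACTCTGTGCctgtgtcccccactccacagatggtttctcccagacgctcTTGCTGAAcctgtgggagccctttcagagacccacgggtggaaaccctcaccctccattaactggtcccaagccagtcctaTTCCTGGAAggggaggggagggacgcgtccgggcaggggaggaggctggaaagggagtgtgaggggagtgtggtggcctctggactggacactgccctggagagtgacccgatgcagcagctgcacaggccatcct

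In the CFB window the capitals are the ISRE letters, read on the opposite strand (TTTCTGTTTC, starting at position -140 from the start), and the STAT letters (TTCCGGGAA, at -92). In the C1R window shown they are the GRE (GGACACTCTGTGC, at -220), C/EBP (TTGCTGAA, at -167) and STAT letters (TTCCTGGAA, at -86). The other C1R window, chr12:7092396-7092695, lies at the 5′ end of the gene as given above. It held only the C/EBP letters, read on the opposite strand (TTATGCAA, at -106), and no GRE. The CD55 window held none of the 5 patterns. None of the 13 windows held the NF-κB letters, and the GRE letters were found only in the C1R window shown. C3 and C1S had no window, so neither statement covers them. These letters were looked for in 300 bases of each start alone.

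Values are TPM that the authors normalized between libraries, so they are per transcript length and levels of different genes can be set side by side. Libraries summed to 812680 to 1009499 TPM, and mitochondrially encoded genes took 11.8% to 17.2% of it. The table keeps no read counts, so the depth behind each library's values is not used here. The labels speak of independent experiments without saying which library came from which, so p-values measure the spread between these libraries. In bulk RNA, fewer cells with a transcript and less transcript per cell cannot be told apart. Epithelial markers fitted the label in part: 6 of 9 had a median of at least 1 TPM (KRT7, KRT8, KRT18, KRT19, EPCAM and CDH1), while NKX2-1, SFTPB and SFTPC, which mark alveolar cells, had medians below it. The summed epithelial list ranged over 7247 to 16745 TPM with IL-1β-plus-budesonide, 3884 to 9581 with IL-1β, 7716 to 22149 with budesonide and 5147 to 10458 in NS, and its part in the results was not tested. Of the 5 hepatocyte markers the summed level was at most 12.4 TPM in any library, and of the 7 immune markers at most 43.7 TPM. Of these 7, 2 had a median of at least 1 TPM (CD68, up to 41.7 TPM, and CD14, up to 6.25 TPM). CD3E and MS4A1 were at 0 throughout. Distances to the other libraries of a group had a median of 0.135 and did not exceed 0.273 in 73 libraries, but were 0.291 to 0.459 in 5 that stood apart: IL-1β-plus-budesonide at 1 h replicate 4 and at 12 h replicate 2, IL-1β at 24 h replicate 2, and budesonide at 2 h replicate 3 and at 12 h replicate 2. Calls that rest on them are given with and without them. Changes at single times that were not called were not followed one by one without them.

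In NS cells the members covered a wide range of levels. CD46 was highest, with a median of 221 TPM over the 19 NS libraries (148 to 335), followed by CD59 at 155 TPM (133 to 176), whose range overlapped that of CD46. CD55 (median 35.5 TPM, 26.7 to 47.7), C5 (34.0, 23.4 to 62.6) and C1S (32.3, 27.9 to 48.6) did not differ beyond their spread. C1R followed at 21.6 TPM (18.0 to 30.4), C3 at 13.6 TPM (8.90 to 27.3) and CFB at 4.48 TPM (2.96 to 8.27). C1R overlapped both C1S and C3, while CFB lay below every C3 value and CFI, at 0.669 TPM (0.229 to 2.20), below every CFB value. The surface inhibitors CD46 and CD59 thus stood above the other 7 members in every NS library. CFI reached 1 TPM in only 15 of the 78 libraries, while the other 8 members reached it in all 78. All 9 passed the filter of at least 1 TPM in at least 3 libraries that left 13327 genes to be tested.

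**Figure D1:**
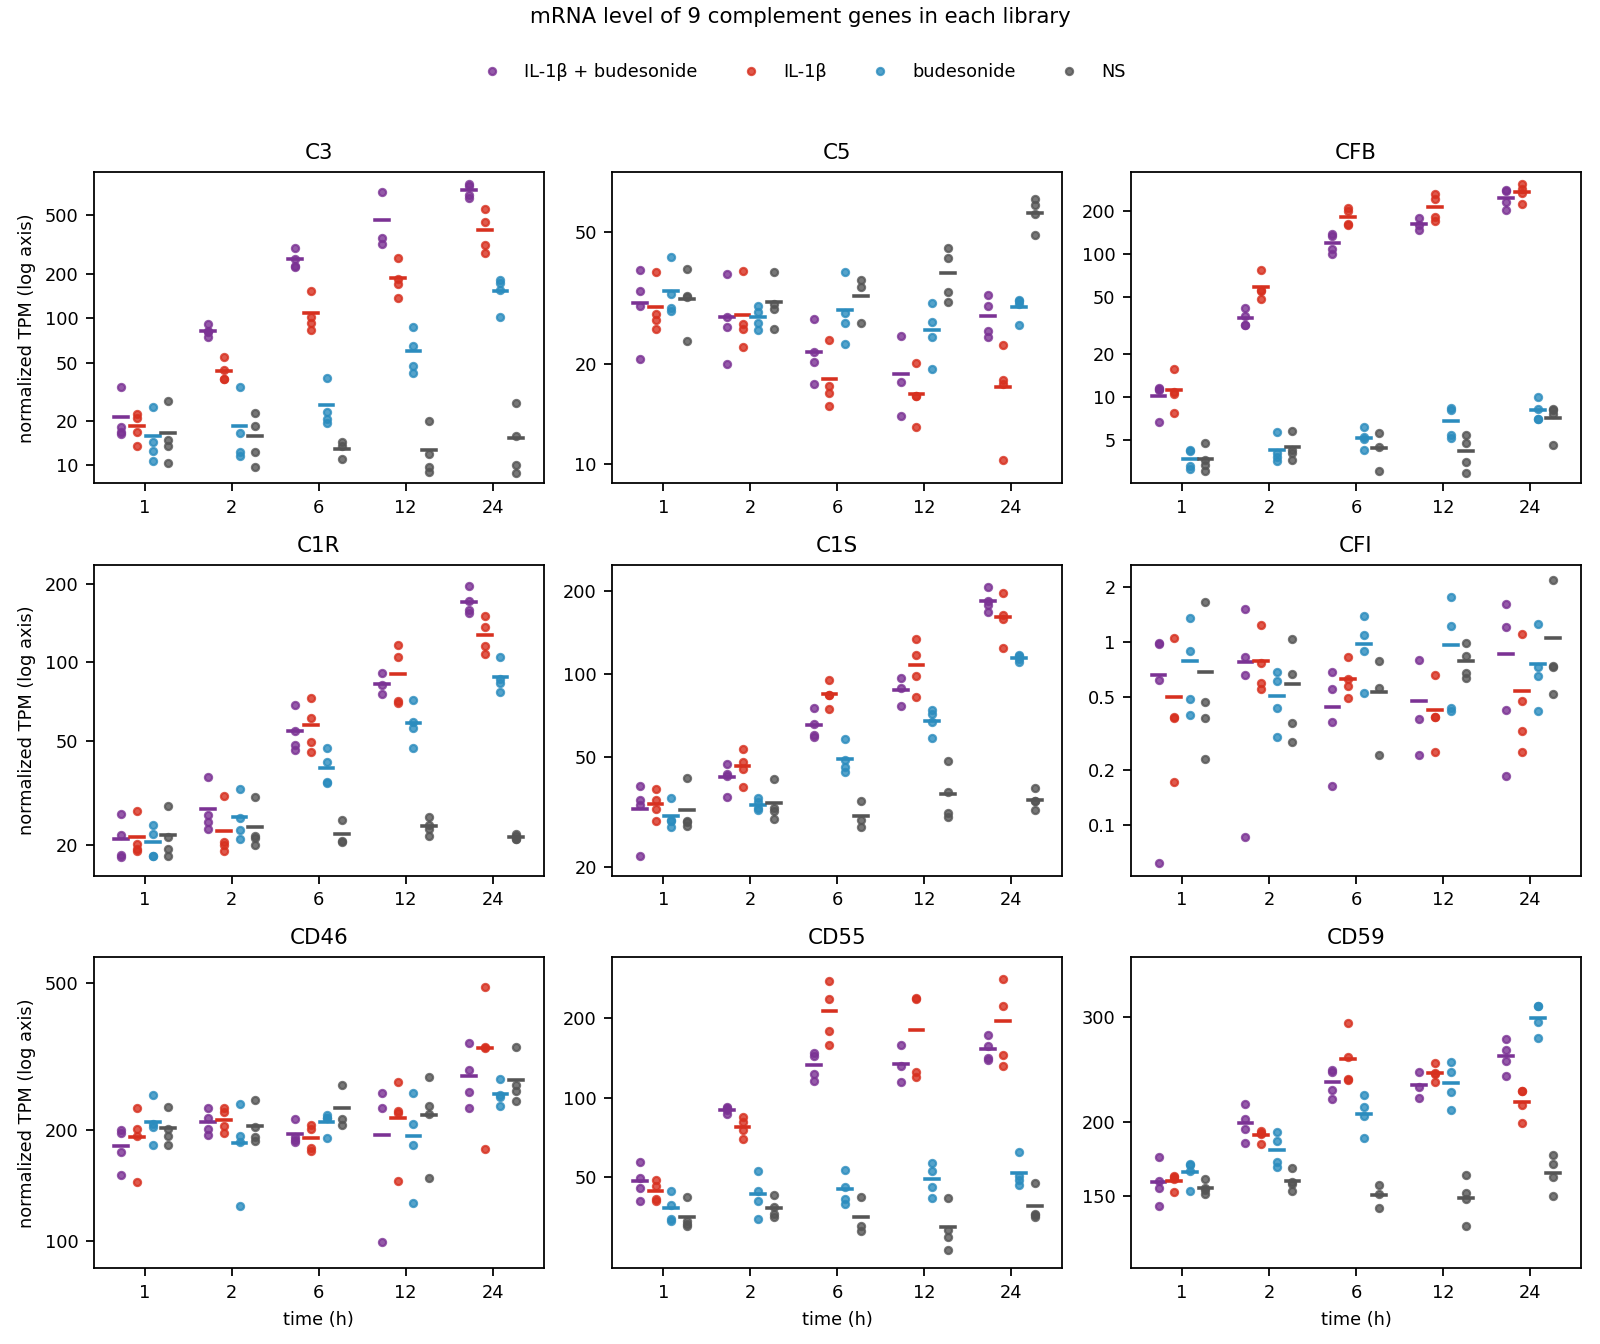
Normalized TPM (log axis, a scale for each gene) of the 9 genes in each library by time in h. Points are libraries and short bars group means, for IL-1β-plus-budesonide, IL-1β, budesonide and NS from left to right at each time; at 24 h the C3 points lie at 660.0 to 812 TPM with cotreatment, 276 to 550 with IL-1β, 102 to 183 with budesonide and 8.90 to 26.6 in NS.

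A call required an adjusted p from limma of at most 0.05, by the Benjamini-Hochberg method across all 13327 genes, together with a log2 fold change of at least 1 in size. Changes are on the scale of log2(TPM + 0.5), which understates those of low genes, and ± gives the standard error (SE) of a log2 change or the standard deviation (SD) of TPM.

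IL-1β raised the mRNA of most of the components, and of CD55, over the 24 h. Of the 9 members, 5 were called up at 1 or more times (C3, CFB, C1R, C1S and CD55), against 7.53% of all genes tested, and 1 was called down (C5), against 8.8%. Budesonide alone called up C3, C1R and C1S, 3 of 9 against 4.87% of all genes, and called down 0 members by limma (1, C5, at an unadjusted p under 0.05 and a fall), against 6.36%. With IL-1β-plus-budesonide the same 5 members as with IL-1β were called up (7.64% of all genes) and C5 was called down (7.92%). The 3 comparisons share the NS libraries. The median log2 change of the 9 members at 24 h was 1.96 with IL-1β-plus-budesonide, 2.17 with IL-1β and 0.42 with budesonide, beside medians over all genes of -0.03, -0.05 and -0.01.

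**Figure D2:**
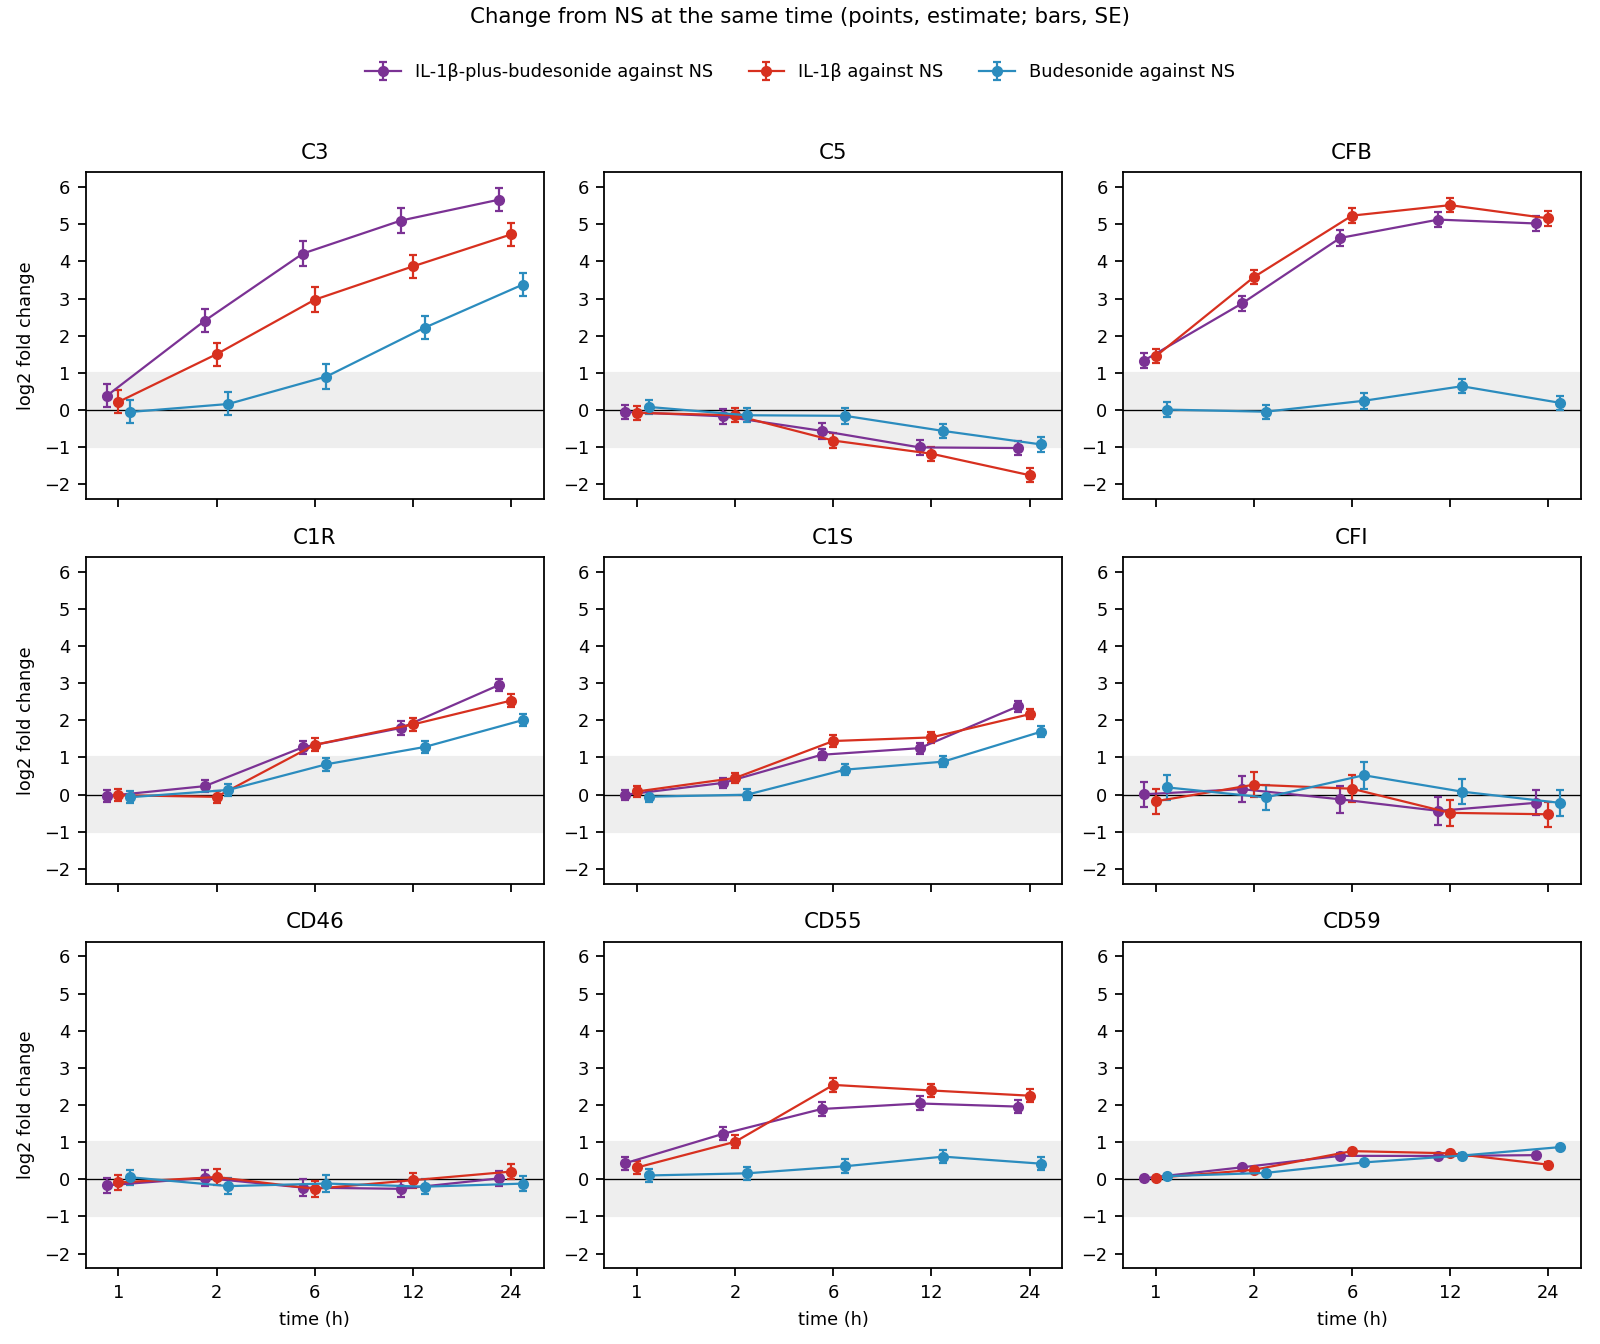
Log2 fold change from NS at the same time (points, estimate; bars, SE; grey band, changes below the minimum for a call) against time in h for IL-1β-plus-budesonide, IL-1β and budesonide. C3, C1R and C1S left the band with all 3 treatments by 24 h, CFB and CD55 with cotreatment and IL-1β alone, C5 below it, and CFI, CD46 and CD59 stayed inside at all 5 times.

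C3, the component at which the pathways meet, spanned 8.90 to 812 TPM, the widest range among the 9 in TPM. As a ratio of highest to lowest it was 91.1-fold, below the 104-fold of CFB (2.96 to 306 TPM). At 2 h its level was 74.7, 81.1, 91.5 and 81.4 TPM in the 4 IL-1β-plus-budesonide libraries, 44.3, 38.6, 54.8 and 38.5 TPM with IL-1β, 11.6, 16.7, 34.1 and 12.3 TPM with budesonide and 9.78, 18.6, 22.8 and 12.3 TPM in NS. Both groups that received IL-1β lay above all NS libraries, whereas budesonide alone overlapped NS. At 24 h the levels were 689.9, 786, 812 and 660.0 TPM with IL-1β-plus-budesonide, 276, 550.2, 450.5 and 314 TPM with IL-1β, 155, 183, 174 and 102 TPM with budesonide and 10.0, 15.9, 26.6 and 8.90 TPM in NS. The 4 treatments no longer overlapped at 24 h, and they stood in the order cotreatment, IL-1β, budesonide, NS. IL-1β changed C3 by 1.50 ± 0.31 on the log2 scale after 2 h, 2.97 after 6 h, 3.87 after 12 h and 4.73 ± 0.31 after 24 h (adjusted p = 1.70e-20). With budesonide it passed later, with 0.90 at 6 h (adjusted p = 0.0570, not called), 2.22 at 12 h and 3.38 ± 0.31 at 24 h (adjusted p = 1.39e-14). With both agents it was 2.40 ± 0.31 at 2 h and 5.67 ± 0.31 at 24 h (adjusted p = 1.65e-24). No NS library at 24 h held more than 26.6 TPM, and C3 in NS did not differ detectably between 24 h and 1 h (-0.15 ± 0.31, adjusted p = 0.890).

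CFB, the convertase protease of the alternative pathway, answered IL-1β earliest and was the only member called at 1 h. Its level at 1 h was 11.3, 6.66, 11.6 and 11.4 TPM with IL-1β-plus-budesonide, 15.6, 7.79, 10.5 and 10.8 TPM with IL-1β, 4.28, 3.31, 3.14 and 4.20 TPM with budesonide and 3.66, 3.35, 3.08 and 4.79 TPM in NS. At 12 h the libraries gave 146, 157 and 178 TPM with IL-1β-plus-budesonide (n = 3), 181, 169, 240.2 and 260.0 TPM with IL-1β, 5.45, 5.23, 8.34 and 8.08 TPM with budesonide and 5.44, 3.53, 4.81 and 2.96 TPM in NS. Libraries with IL-1β lay above all NS libraries at each of the 5 times, with or without budesonide, and those with budesonide alone overlapped NS at each time. The log2 change of CFB was already 1.45 ± 0.19 after 1 h of IL-1β (adjusted p = 3.86e-08), and it was 3.58 after 2 h, 5.24 after 6 h, 5.52 ± 0.19 after 12 h (adjusted p = 2.50e-34) and 5.16 after 24 h. Budesonide alone gave 0.64 ± 0.19 at 12 h (adjusted p = 0.00788), under the minimum for a call, and between -0.05 and 0.25 at the other 4 times. CFB in NS was 7.65, 4.63, 8.27 and 8.08 TPM at 24 h, against 3.66, 3.35, 3.08 and 4.79 TPM at 1 h, a log2 difference of 0.84 ± 0.19 (adjusted p = 0.00273). That drift is small beside the change with IL-1β. Of the distinct 31-base words in CFB transcripts, 38.8% also occur in transcripts of other genes in GENCODE, so part of its signal may be assigned between them by the counting.

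C1R and C1S, the paired proteases of C1, both rose with each of the 3 treatments, later than C3 and CFB did with IL-1β. Neither was called at 1 or 2 h with any treatment. At 2 h of IL-1β they parted, with 0.45 ± 0.14 on the log2 scale for C1S (adjusted p = 0.0168, under the fold) and -0.06 ± 0.17 for C1R (adjusted p = 0.890). At 24 h C1R was 172, 158, 196 and 154 TPM with IL-1β-plus-budesonide, 115, 107, 150.0 and 136 TPM with IL-1β, 83.5, 105, 86.5 and 77.2 TPM with budesonide and 21.0, 21.9, 21.0 and 21.6 TPM in NS. The 4 treatments did not overlap, and the NS libraries lay within 1 TPM of each other. The log2 changes of C1R at 24 h were 2.95 ± 0.17 with IL-1β-plus-budesonide (adjusted p = 7.05e-24), 2.53 ± 0.17 with IL-1β (adjusted p = 2.02e-20) and 2.01 ± 0.17 with budesonide (adjusted p = 2.50e-16). At 24 h C1S was 178, 168, 206 and 185 TPM with IL-1β-plus-budesonide, 158, 124, 197 and 163 TPM with IL-1β, 118, 111, 116 and 113 TPM with budesonide and 34.7, 32.3, 38.6 and 34.6 TPM in NS. Here the cotreatment and IL-1β libraries overlapped, and both lay above those with budesonide, which lay above NS. The log2 changes of C1S at 24 h were 2.38 ± 0.14 with IL-1β-plus-budesonide (adjusted p = 5.38e-23), 2.17 ± 0.14 with IL-1β (adjusted p = 8.67e-21) and 1.70 ± 0.14 with budesonide (adjusted p = 1.85e-16).

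C1S stood above C1R in all but 1 library, by a margin that varied. At 2 h the ratio of C1S to C1R in a library had a median of 2.18 with IL-1β (1.74 to 2.35) and of 1.46 in NS, without overlap. The one library in which C1R exceeded C1S, at a ratio of 0.844, was IL-1β-plus-budesonide at 12 h replicate 2, which stood apart, and the other 2 of that group were at 1.17 and 1.19. At 24 h the ratio was 1.03 to 1.20 with IL-1β-plus-budesonide, 1.16 to 1.37 with IL-1β, 1.05 to 1.47 with budesonide and 1.48 to 1.84 in NS. At that time NS libraries lay above those of every treatment. At 6 h IL-1β had raised C1R by 1.34 ± 0.18 and C1S by 1.44 ± 0.15 on the log2 scale, both called, whereas budesonide gave 0.82 ± 0.18 for C1R and 0.67 ± 0.15 for C1S, both past the adjusted p and under the fold. C1R shares 12% of its 31-base words with other genes, most of them with its relative C1RL (10.7%), and C1S 3.92%.

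C5, the source of C5a and the first part of the membrane attack complex, was the only member called below NS. At 24 h it was 29.9, 25.1, 32.2 and 24.1 TPM with IL-1β-plus-budesonide, 22.7, 10.3, 17.9 and 17.4 TPM with IL-1β, 31.0, 30.3, 31.1 and 26.2 TPM with budesonide and 60.1, 56.5, 62.6 and 48.9 TPM in NS. All 12 treated libraries lay below the lowest NS library, with those of IL-1β lowest. The log2 change with IL-1β was -0.82 ± 0.21 at 6 h, under the fold for a call, -1.18 ± 0.19 at 12 h (adjusted p = 1.11e-06) and -1.76 ± 0.19 at 24 h (adjusted p = 1.85e-11). With budesonide it was -0.93 ± 0.19 at 24 h (adjusted p = 6.26e-05), under the fold, and with IL-1β-plus-budesonide -1.01 ± 0.21 at 12 h and -1.02 ± 0.19 at 24 h (adjusted p = 1.26e-05). The cotreatment values sit at the edge of the fold for a call: without the 5 libraries that stood apart the 12 h change was -0.82, and over single libraries left out it lay between -1.22 and -0.82 at 12 h and between -1.10 and -0.96 at 24 h. The NS level itself moved, at 60.1, 56.5, 62.6 and 48.9 TPM at 24 h against 31.9, 31.9, 38.6 and 23.4 TPM at 1 h, a log2 difference of 0.86 ± 0.19 (adjusted p = 0.00218). IL-1β libraries held 10.3 to 22.7 TPM at 24 h and 25.5 to 37.8 TPM at 1 h, so the gap to NS at 24 h holds both a lower level with IL-1β and a higher level in NS. The lowest of these, 10.3 TPM, was replicate 2, a library that stood apart. Budesonide libraries held 26.2 to 31.1 TPM at 24 h and 28.9 to 42.1 TPM at 1 h. Cotreatment libraries held 24.1 to 32.2 TPM at 24 h and 20.7 to 38.5 TPM at 1 h. Both overlapped between these times while NS rose, so their gap to NS at 24 h holds that rise.

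The ratio of C3 to C5 mRNA within a library sums up these opposite movements. At 24 h it was 23.1 to 31.3 with IL-1β-plus-budesonide, 12.2 to 53.5 with IL-1β, 3.90 to 6.04 with budesonide and 0.166 to 0.424 in NS, where C5 exceeded C3. The highest of these, 53.5, was IL-1β replicate 2, which stood apart, and without it the other 3 IL-1β libraries were at 12.2 to 25.1. At 1 h it was below 1 in all 4 treatments, with a highest value of 0.886. The ratio of CFB to C3 separated the treatments in another way. At 6 h it was 0.394 to 0.591 with IL-1β-plus-budesonide, 1.35 to 2.12 with IL-1β, 0.130 to 0.299 with budesonide and 0.277 to 0.415 in NS. CFB exceeded C3 in each IL-1β library at 6 h and in no library of the other 3 treatments at that time.

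Among the membrane inhibitors, CD55 was the only one called. At 6 h it was 123, 116, 143 and 147 TPM with IL-1β-plus-budesonide, 158, 179, 274 and 235 TPM with IL-1β, 46.1, 39.6, 41.5 and 53.3 TPM with budesonide and 32.7, 31.3 and 42.1 TPM in NS (n = 3). IL-1β libraries were highest, cotreatment libraries lay below all of them, and budesonide overlapped NS. With IL-1β its log2 change was 1.01 ± 0.17 after 2 h, 2.54 ± 0.19 after 6 h (adjusted p = 3.64e-18), 2.39 after 12 h and 2.25 ± 0.17 after 24 h. The 2 h value is at the edge of the fold, since it lay between 0.97 and 1.07 over single libraries left out. With IL-1β-plus-budesonide it was 1.23 ± 0.17 after 2 h, 1.89 ± 0.19 after 6 h (adjusted p = 7.46e-13) and 1.96 ± 0.17 after 24 h. Budesonide alone gave 0.61 ± 0.17 at 12 h (adjusted p = 0.00510), under the fold. CD55 was thus high from 6 h on with little further movement, unlike C3, C1R and C1S, which were still climbing between 12 and 24 h.

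CD59, the inhibitor of the membrane attack complex, changed little in size and with small error. At 24 h it was 253, 264, 275 and 239 TPM with IL-1β-plus-budesonide, 226, 225, 199 and 213 TPM with IL-1β, 294, 314, 313 and 277 TPM with budesonide and 162, 169.8, 176 and 149.9 TPM in NS. Every treated library lay above every NS library, and here budesonide alone was highest. The log2 changes at 24 h were 0.65 ± 0.06 with IL-1β-plus-budesonide (adjusted p = 2.10e-13), 0.39 ± 0.06 with IL-1β (adjusted p = 7.64e-07) and 0.87 ± 0.06 with budesonide (adjusted p = 1.90e-18), each past the adjusted p and under the fold. The time courses differed in form: the change with IL-1β was 0.76 after 6 h, 0.70 after 12 h and 0.39 after 24 h, whereas with budesonide it was 0.45, 0.64 and 0.87 at these times.

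CD46, the cofactor for CFI on the cell surface, passed the test in none of the 31 contrasts at single times. At 24 h it was 254, 229.9, 290.5 and 344 TPM with IL-1β-plus-budesonide, 334, 177, 335 and 487 TPM with IL-1β, 249, 232, 246 and 276 TPM with budesonide and 266, 240.1, 255 and 335 TPM in NS, and the groups overlapped. Averaged over the 5 times, the log2 change and its 95% interval were -0.12 (-0.31 to 0.07) with IL-1β-plus-budesonide, -0.02 (-0.21 to 0.17) with IL-1β and -0.11 (-0.30 to 0.07) with budesonide. The lowest values, 99.2 TPM with IL-1β-plus-budesonide at 12 h and 125 TPM with budesonide at 2 h, were in libraries that stood apart.

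CFI, the soluble protease that inactivates C3b and C4b, was near the limit of the measurement throughout, from 0.0621 to 2.20 TPM. At 24 h it was 0.424, 0.185, 1.22 and 1.63 TPM with IL-1β-plus-budesonide, 0.478, 0.251, 0.327 and 1.11 TPM with IL-1β, 0.729, 0.423, 0.651 and 1.26 TPM with budesonide and 0.747, 0.524, 0.732 and 2.20 TPM in NS. Groups overlapped, and replicate 4 was the highest library in all 4 treatments. The mean change over the 5 times was -0.13 (95% interval -0.44 to 0.19) with IL-1β-plus-budesonide, -0.15 (-0.47 to 0.16) with IL-1β and 0.10 (-0.21 to 0.41) with budesonide. At this level, and with 35.2% of its 31-base words also found in transcripts of other genes, no difference in CFI passed the test. That fit does not pair libraries of the same replicate number. At 12 h IL-1β replicates 1 to 4 held 0.252, 0.390, 0.389 and 0.666 TPM, against 0.847, 0.682, 0.640 and 0.992 TPM in NS. Each lay below the NS library of its number, as at 24 h, whereas at 2 h each lay above it.

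Budesonide added to IL-1β was then compared with IL-1β alone. C3 was higher with both agents, and it was the only member called up, 1 of 9 against 5.15% of all genes. No member was called down by limma (3 at an unadjusted p under 0.05: CFB, C1S and CD55), against 5.6% of all genes. C3 at 6 h was 225, 253, 302 and 224 TPM with IL-1β-plus-budesonide, against 82.8, 102, 154 and 93.0 TPM with IL-1β, so the groups did not overlap. The log2 difference was 1.24 ± 0.31 after 6 h (adjusted p = 0.00110), 1.24 ± 0.33 after 12 h (adjusted p = 0.00271) and 0.94 ± 0.31 after 24 h (adjusted p = 0.0140), the last under the fold. At 12 h it rests on the fold of 1 library, IL-1β-plus-budesonide replicate 2, at 716 TPM against 351 and 318 TPM in the other 2. Without that library the difference was 0.87 and was not called. At 24 h IL-1β replicate 2, the highest of its group at 550.2 TPM, stood apart, and the difference without it is not given. C5 at 24 h was 24.1 to 32.2 TPM with IL-1β-plus-budesonide, against 10.3 to 22.7 TPM with IL-1β, a difference of 0.73 ± 0.19 (adjusted p = 0.00198) under the fold.

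CFB at 2 and 6 h and CD55 at 6 h went the other way, by less than the fold for a call. CFB at 2 h was 41.6, 31.8, 32.1 and 37.0 TPM with IL-1β-plus-budesonide, against 76.8, 54.8, 48.5 and 55.9 TPM with IL-1β, a log2 difference of -0.71 ± 0.19 (adjusted p = 0.0122). At 6 h it was -0.60 ± 0.19 (adjusted p = 0.0123), and at 24 h -0.14 ± 0.19 (adjusted p = 0.635). CD55 at 2 h was 86.3 to 92.5 TPM with IL-1β-plus-budesonide, against 69.7 to 84.6 TPM with IL-1β, higher without overlap, though the difference of 0.22 ± 0.17 did not pass the test (adjusted p = 0.663). CD55 at 6 h differed by -0.65 ± 0.17 (adjusted p = 0.00256), and at 24 h by -0.29 ± 0.17 (adjusted p = 0.202). The libraries of both genes did not overlap between these groups at 6 h and overlapped at 24 h. C1S differed by -0.37 ± 0.14 at 6 h (adjusted p = 0.0362), and C1R was higher by 0.42 ± 0.17 at 24 h (adjusted p = 0.0429).

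Against budesonide alone, IL-1β-plus-budesonide called up 3 of 9 members (C3, CFB and CD55; 4.91% of all genes). It called down 0 by limma (2 at an unadjusted p under 0.05, C5 and CD59; 2.57% of all genes). CFB at 24 h was 229.6, 201, 272 and 278 TPM with IL-1β-plus-budesonide, against 7.07, 7.10, 8.33 and 10.1 TPM with budesonide, a log2 difference of 4.83 ± 0.19 (adjusted p = 1.18e-30). C3 differed by 2.29 ± 0.31 and CD55 by 1.54 ± 0.17 at 24 h. The difference in CD55 at 2 h, 1.07, was 0.97 without the 5 libraries that stood apart. For C1R and C1S the difference at 24 h was 0.95 ± 0.17 (adjusted p = 1.49e-05) and 0.68 ± 0.14 (adjusted p = 2.26e-04), both under the fold, and CD59 differed by -0.22 ± 0.06 (adjusted p = 0.0157).

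The interaction asked whether the change with both agents differed from the sum of the 2 single changes on the log2 scale, that is, from the product of the folds. Of the 9 members, 4 were called below that product at 1 or more times (C3, CFB, C1R and C1S; 3.47% of all genes) and 1 above it (C5; 4.52%). For C3 the interaction did not pass the test at 2 h (0.74 ± 0.44), 6 h (0.34 ± 0.46) or 12 h (-0.98 ± 0.46, adjusted p = 0.184), and it was -2.44 ± 0.44 at 24 h (adjusted p = 1.79e-05). The estimate changed sign between 6 and 12 h while the mean level went on rising. C1R gave -1.38 ± 0.25 at 12 h and -1.58 ± 0.24 at 24 h (adjusted p = 3.23e-07), and C1S -1.04 ± 0.21, -1.18 ± 0.21 and -1.49 ± 0.20 at 6, 12 and 24 h (adjusted p = 2.00e-08 at 24 h). The 6 h value of C1S is at the edge of the fold, with -1.13 to -0.96 over single libraries left out, and it was not called without IL-1β-plus-budesonide replicate 4, IL-1β replicate 3, budesonide replicate 3 or NS replicate 4. For CFB it was -1.03 ± 0.28 at 12 h (adjusted p = 0.0100), at the edge of the fold, with -1.15 to -0.89 over single libraries left out and an adjusted p of 0.0755 when each time was fitted separately. CD55 fell just short of the fold at 6 h (adjusted p = 0.00504) and gave -0.96 ± 0.26 at 12 h (adjusted p = 0.00775), and CD59 gave -0.71 ± 0.09 at 12 h (adjusted p = 5.69e-08). C5 gave 1.66 ± 0.27 at 24 h (adjusted p = 3.31e-06). Its gap below NS with both agents was thus smaller than the single gaps combined. Each gap is taken from NS, whose C5 level rose between 1 and 24 h.

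**Figure D3:**
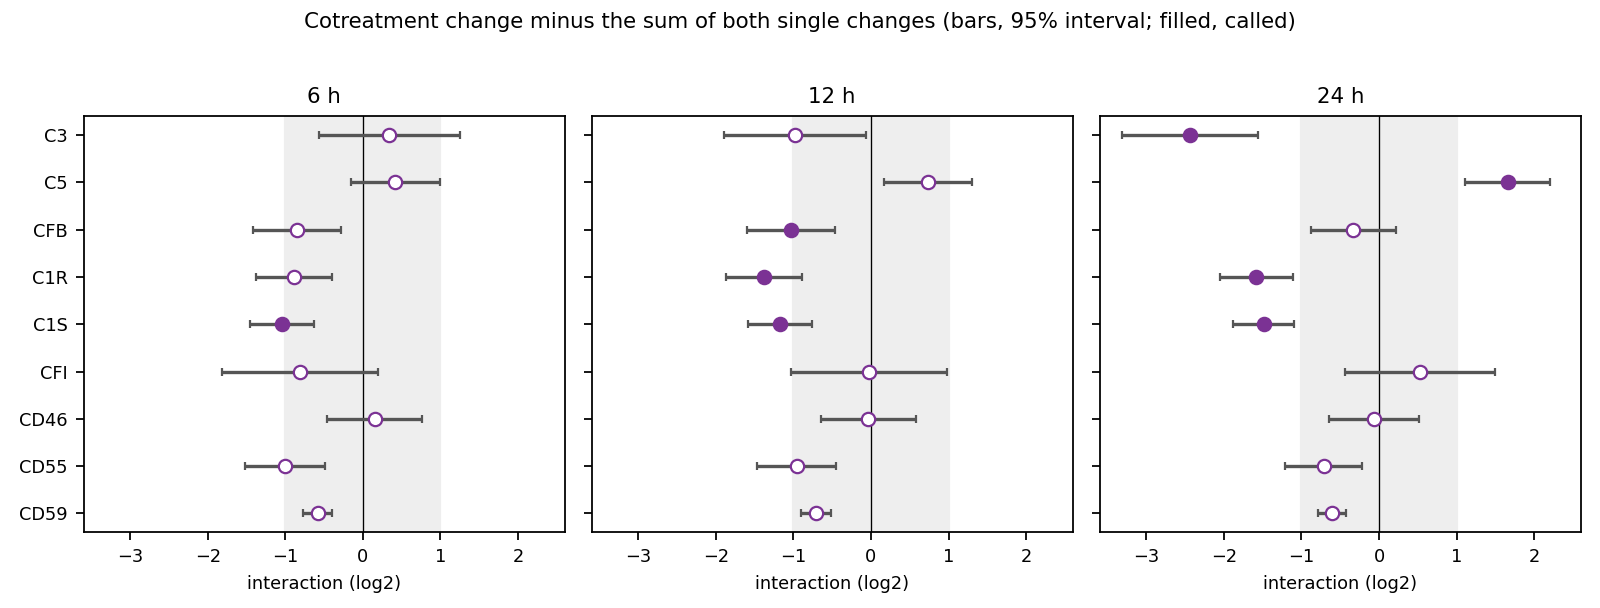
Interaction of IL-1β and budesonide on the log2 scale for the 9 genes at 6, 12 and 24 h (points, estimate; bars, 95% interval; filled, called; grey band, below the minimum for a call). At 24 h C3, C1R and C1S lie at -2.44, -1.58 and -1.49 and C5 at 1.66, while CD46 is at -0.06.

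The group means place these values on the TPM scale, as a description. For C3 at 24 h the mean was 737 ± 73.3 TPM with IL-1β-plus-budesonide (SD, n = 4), where adding the 2 single increases to NS would give 536 TPM and multiplying the 2 single folds 3978 TPM. At 6 h the mean was 251 ± 36.6 TPM, beside 120.5 TPM by addition and 212 TPM by multiplication. The C3 mean therefore exceeded the sum at 2, 6, 12 and 24 h, and exceeded the product at 2 and 6 h but not at 12 and 24 h. At 1 h the cotreatment libraries overlapped NS. Replicate 3 was highest in each treatment, at 34.1 TPM with cotreatment (others 16.2 to 18.2 TPM) and 27.3 TPM in NS. Each cotreatment library lay above the NS library of its number, but the log2 change by limma was 0.38 ± 0.31 (adjusted p = 0.936). For C1R at 24 h the mean was 169.9 ± 19.0 TPM, beside a sum of 194 TPM. For C1S it was 184 ± 16.4 TPM, beside 240.2 TPM, and for CD55 152 ± 15.6 TPM, beside 208 TPM. These 3 genes fell short even of the sum at 6, 12 and 24 h, unlike C3. So did the means of CFB, by least at 24 h (245 beside 270 TPM), and of CD59 (258 beside 351 TPM at 24 h).

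In NS cells alone, 24 h against 1 h, 0 members were called up by limma (3 at an unadjusted p under 0.05: C5, CFB and CD46) and 0 were called down (0 at an unadjusted p under 0.05), against 0.42% and 0.21% of all genes. CD46 gave 0.43 ± 0.21 (adjusted p = 0.253), with 266, 240.1, 255 and 335 TPM at 24 h against 193, 182, 202 and 231 TPM at 1 h. Its 24 h libraries lay above all those at 1 h, though the difference did not pass the test, which does not pair replicate numbers.

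Likeness of time courses was measured as Pearson's r over the 20 group means of log2 values, as a description, since all points share the same libraries and NS groups. Among the members C1R and C1S were most alike (r = 0.983), followed by CFB and CD55 (r = 0.980). C3 stood between the pairs, with 0.925 to C1S, 0.921 to C1R, 0.883 to CD55 and 0.881 to CFB, and C5 ran opposite to CD55 (r = -0.81). CD46 had no r above 0.48 with any member. Over all genes tested, C3 was closest to FTH1 (the ferritin heavy chain, r = 0.973), SQOR (0.971) and SLPI (a secreted protease inhibitor, 0.969). CFB was closest to CLEC4E (0.981), CD55 and PI3 (elafin, 0.980), C1S to C1R and then HEBP1 (0.950), CD55 to CFB, BIK (0.976) and C1QTNF1 (0.972), and CFI to SGCB (0.796).

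Another 44 genes of the complement system were followed as a list, from initiators to receptors. All 44 were in the table, and 18 passed the filter. Of these 18, IL-1β called 3 up and 1 down, against 7.53% and 8.8% of all genes. Budesonide called 5 up and 4 down, against 4.87% and 6.36%, and IL-1β-plus-budesonide 4 up and 2 down, against 7.64% and 7.92%. Relative to IL-1β the cotreatment called 3 up and 1 down (5.15% and 5.6% of all genes), and relative to budesonide 2 up and 0 down (4.91% and 2.57%). Transcripts for C1q (C1QA, C1QB and C1QC), C6, C7, C8A, C8B, C9 and MBL2 did not pass the filter, with medians of at most 0.0216 TPM, so among the terminal components after C5 only C8G was tested.

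C5AR2, a receptor for C5a, was at 3.05 to 4.74 TPM with IL-1β-plus-budesonide, 3.46 to 3.75 TPM with budesonide, 0.149 to 0.226 TPM with IL-1β and 0.128 to 0.227 TPM in NS at 24 h. Both groups with budesonide lay above both without it, and the change with budesonide was 2.64 ± 0.13 (adjusted p = 3.73e-26). C5AR1, the main C5a receptor, was at 4.56 to 7.39 TPM with budesonide and 1.81 to 3.25 TPM in NS (1.17 ± 0.21, adjusted p = 2.64e-06). CFD, which cleaves factor B, rose by 1.18 ± 0.29 at 24 h with budesonide (adjusted p = 5.54e-04).

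CPN1, the catalytic chain of carboxypeptidase N, which trims C3a and C5a, was at 0.0483 to 0.167 TPM with IL-1β-plus-budesonide, 0.148 to 0.423 TPM with IL-1β, 0.125 to 0.260 TPM with budesonide and 2.34 to 3.21 TPM in NS at 24 h. Each treatment lay below NS, with a change of -2.51 ± 0.21 on cotreatment (adjusted p = 1.43e-16). As with C5, NS drifted, by 1.13 ± 0.21 (adjusted p = 1.33e-04) between 1 and 24 h.

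ITGAM, a chain of complement receptor 3 known from leukocytes, was at 2.71 to 5.23 TPM with IL-1β and 0.351 to 1.05 TPM in NS at 24 h (1.95 ± 0.33, adjusted p = 1.35e-06). The 7 immune markers summed to 10.1 to 43.7 TPM with IL-1β and 7.42 to 15.9 TPM in NS over all times. Over all libraries CD68 was at 4.30 to 41.7 TPM (median 9.12) and CD14 at 0.108 to 6.25 TPM (median 1.69). PTPRC was at no more than 0.710 TPM, and CD3E and MS4A1 were at 0 in every library. C4A, the classical component that C1S cleaves, was at 2.65 to 4.27 TPM with IL-1β and 1.15 to 1.81 TPM in NS (1.03 ± 0.22, adjusted p = 1.07e-04), and it cannot be told apart with certainty from its near-identical copy C4B. C4BPB, a chain of C4b-binding protein, rose by 1.12 ± 0.23 with cotreatment (adjusted p = 5.04e-05) at levels of at most 2.15 TPM. VTN, which binds terminal complexes, was at 7.21 to 14.9 TPM with budesonide and 20.8 to 34.3 TPM in NS (-1.42 ± 0.20, adjusted p = 1.70e-08).

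**Figure D4:**
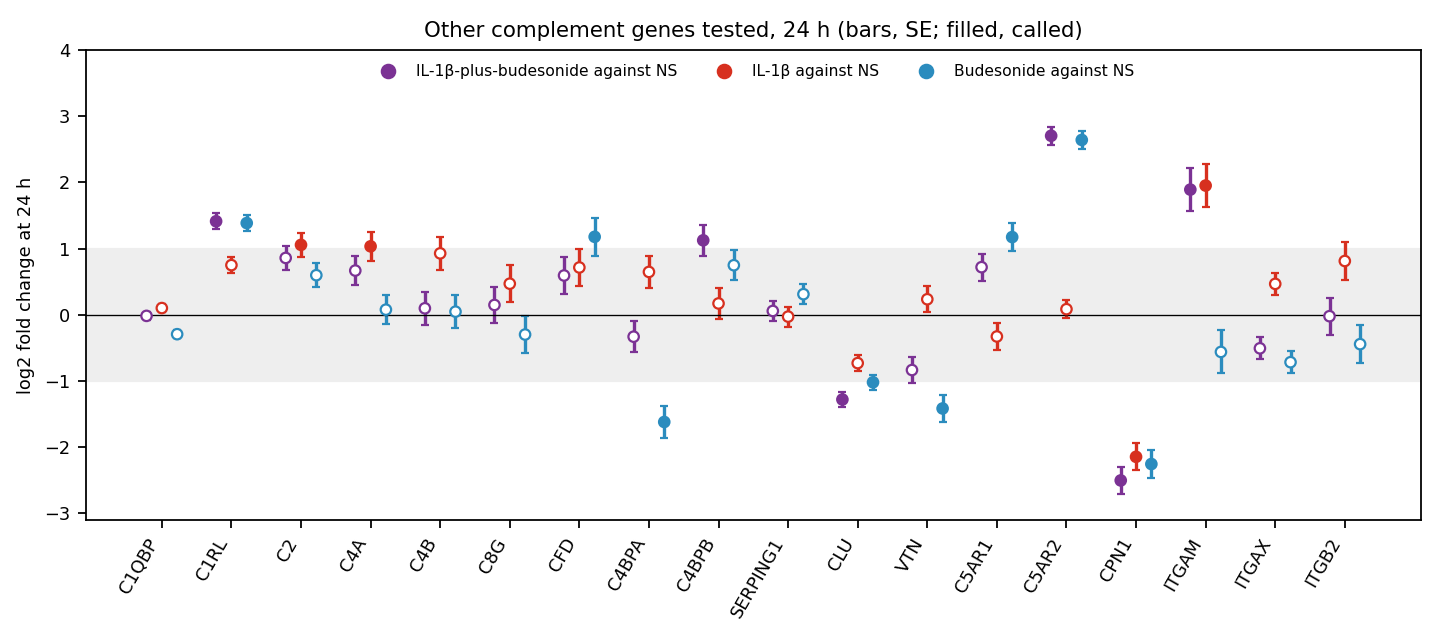
Log2 fold change from NS at 24 h for the 18 other complement genes that passed the filter (points, estimate; bars, SE; filled, called) with IL-1β-plus-budesonide, IL-1β and budesonide from left to right. C5AR2 is high in both groups with budesonide (2.71 and 2.64), and CPN1 is low with all 3 treatments (-2.51, -2.15 and -2.26).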

How the data were processed

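The authors prepared stranded poly(A) libraries from A549 cells and, per the labels and the processing notes, quantified transcripts with kallisto on GRCh38 (hg38) and normalized them with sleuth. The deposited table holds gene-level TPM that the authors rescaled between libraries, used here as a normalized signal without further scaling. The deposited comparison tables hold the authors' fold changes and q-values and were not used. The table has 79 libraries, of which 1 is not listed in the labels and was not used. No pair held identical values (0 pairs). Groups came from the labels' titles.

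Of 19652 genes, the 13327 that reached 1 TPM in 3 or more libraries (6325 did not) were fitted as log2(TPM + 0.5) in limma 3.58.1 under R 4.3.3, with 1 mean per group over all 78 libraries (58 residual degrees of freedom) and standard errors moderated with a trend. Tests were two-sided, and p-values were adjusted by Benjamini-Hochberg within a contrast. Contrasts were each treatment against its NS group, cotreatment against IL-1β or budesonide, their interaction, and NS at 24 h against 1 h. On simulated data for IL-1β against NS at 6 h with 13327 genes, limma called 0 of 50 genes with a 1.5-fold change (under the minimum), 49 of 50 at 3-fold, 49 of 50 at 4-fold, 50 of 50 at 8-fold and 0 unchanged genes. Figures and summaries used Python 3.11.15, numpy 2.4.6, pandas 2.3.3 and matplotlib 3.10.9.

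The 9 members, the list of 44 other complement genes, the marker lists and the motifs were chosen with earlier results of these data known. Of the list, at most the 6 genes per comparison with the largest time-averaged change among those called were named with values. A few further genes of that list are not reported here. Alternatives were another pseudocount, filter, scaling, no trend, a fit for each time, a replicate block and leaving out each library. Leaving out the 5 libraries that stood apart was chosen after seeing the data. The TPM keep no read counts, so no interval for counting error is given.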

Additional observations from a re-analysis of the deposited data

Results flagged for a closer look

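Of 162 groups of 4 libraries examined over the 9 genes, 13 held a library far from the others of its group by Dixon's criterion, which chance flags in about 1 in 20 groups. Replicate 3 was the high one in 5 of them. C3 with IL-1β-plus-budesonide at 1 h was 34.1 TPM in replicate 3, against 16.2 to 18.2 TPM in the others. C1R in replicate 3 was 26.9 TPM with IL-1β at 1 h (others 18.9 to 20.2), 30.7 TPM with IL-1β at 2 h (18.8 to 20.5) and 30.4 TPM in NS at 2 h (19.9 to 21.6). C1S in NS at 1 h was 42.2 TPM in replicate 3 (28.2 to 29.3). Replicate 4 was the high one in 4, all in NS. CFI was 1.66 TPM at 1 h (0.229 to 0.470) and 2.20 TPM at 24 h (0.524 to 0.747), and CD55 was 42.1 TPM at 1 h (32.7 to 34.2) and 47.7 TPM at 24 h (35.5 to 36.4).

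In the other 4 the library was low. CFB in replicate 2 was 6.66 TPM with IL-1β-plus-budesonide at 1 h (11.3 to 11.6) and 4.63 TPM in NS at 24 h (7.65 to 8.27). C5 was 26.2 TPM in replicate 4 with budesonide at 24 h (30.3 to 31.1), and CD46 was 189.9 TPM in replicate 2 with budesonide at 6 h (215 to 220.1).

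The effect of budesonide differed with and without IL-1β, by the test of the interaction itself in limma together with a log2 size of at least 1, in 5 genes: C3 at 24 h (-2.44), C5 at 24 h (1.66), CFB at 12 h (-1.03), C1R at 12 h (-1.38) and 24 h (-1.58), and C1S at 6 h (-1.04), 12 h (-1.18) and 24 h (-1.49), all on the log2 scale. CD55 and CD59 passed the test at 6, 12 and 24 h with smaller sizes, the largest for CD59 being -0.71 at 12 h (adjusted p = 5.69e-08).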

How the results depend on the processing

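The counts of members called kept their side of 1.5 times the main count in all but 3 cases. With median-of-ratios scaling the count called down by IL-1β-plus-budesonide against NS was 0, where it was 1. Over single libraries left out, the count called down by budesonide lay between 0 and 1 (1 without NS at 24 h replicate 4), and the count called up in NS at 24 h against 1 h between 0 and 1 (1 without NS at 24 h replicate 2). No call reversed under any alternative. Changes at single times that were not called were not followed one by one there. Most single calls lost lay close to the fold of 1 in the main fit. An exception was C3 on cotreatment against IL-1β at 12 h. It was 1.24 in the main fit and 0.87 without the 5 libraries that stood apart. C5 on cotreatment against NS at 12 h was -0.99 with a pseudocount of 1, -0.93 with median-of-ratios scaling, -0.97 with quantile normalization and -0.82 without the 5 libraries that stood apart, and at 24 h -0.99 with median-of-ratios scaling. CD55 with IL-1β at 2 h was 0.95 and C1S in the interaction at 6 h -0.97 with quantile normalization, and CFB in the interaction at 12 h was -0.97 with a pseudocount of 1. With a separate limma fit for each time this CFB value kept its size (-1.03) and was lost by its adjusted p of 0.0755. No filter on low values, a pseudocount of 0.1 and no trend lost no call. Separate fits for each time give no value for means over times or for NS at 24 h against 1 h, which were not run there. No scaling moved the median of all genes by over 0.1 on the log2 scale.

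The replicate numbers were not used as a block, since the labels do not say what they mark. Deviations from the group means of same-numbered libraries at the same time correlated above 0.1 in 111 of 114 pairs (lowest -0.119, median 0.266). With different numbers 24 of 342 pairs did so, and 77 of 78 libraries were closest to their own number. Same-numbered libraries thus deviated together, and the main fit leaves that shared spread in its standard errors. Changes at single times that were not called were not followed one by one with a block. With the replicate block the members called up and down numbered 5 and 1 with IL-1β, 3 and 0 with budesonide and 5 and 1 with cotreatment, as without it. C1S on cotreatment at 6 h (0.999), C5 on cotreatment at 12 h (-0.92) and C1S in the interaction at 6 h (-0.97) then fell under the fold.

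The table keeps no read counts to set limits from, and no difference in CFI, at 0.0621 to 2.20 TPM, passed the test.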

Other observations

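The number of the replicate that held the highest value was counted over the 18 groups of 4 libraries. Replicate 3 was highest in 17 groups for C1S and in 15 each for C3, C5 and C1R. Replicate 4 was highest in 16 groups for CD46, 15 for CFI and 14 for CD55. CFB was highest in replicate 4 in 7 groups, in replicate 3 in 6 and in replicate 1 in 5, and CD59 was highest in replicates 3 and 4 in 6 groups each. What the numbers stand for is not given in the labels. Of the pairs close in their time courses, C1R and C1S were both mostly highest in replicate 3. CFB and CD55 did not share an order in this way.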
